A study of Homo sapiens with 8 samples.

Results

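The transcripts described here are the precursors of 4 microRNA clusters of human stem and early embryonic cells: MIR302/MIR367, MIR17HG, MIR371/MIR373 and C19MC. Peaks of an RBPMS eCLIP experiment were taken as members where they shared at least 1 base with one of 4 stretches of build hg19, on the strand of the cluster. These stretches were chromosome 4, 113567 to 113572 kb, minus strand, for MIR302/MIR367; chromosome 13, 92000 to 92007 kb, plus strand, for MIR17HG; chromosome 19, 54285 to 54295 kb, plus strand, for MIR371/MIR373; and chromosome 19, 54160 to 54270 kb, plus strand, for C19MC. The members were 50 of the 194003 peaks listed over 4 libraries, 30 in MIR302/MIR367 and 20 in MIR17HG, and none in the other 2 stretches.

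The cells were HUES6, an established human embryonic stem cell line, wild type, labelled as control in treatment and grown in FTDA medium. The 4 eCLIP libraries hold RNA crosslinked with UV light at 400 mJ/cm2 and pulled down with an antibody specific for RBPMS, from dishes of about 20M cells. The 4 input libraries come from the same cell line and the same crosslinking, with no antibody; the values used here contain them only through the authors' log2 fold and −log10 p of immunoprecipitation over input for each peak. The sources used here do not say whether the libraries are separate cultures, so p-values measure only the spread between these libraries, which may be technical, and no antibody control in cells without RBPMS was used here. Peak lists do not allow a check of the cell type by its marker genes.

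RBPMS is an RNA-binding protein with a single RNA recognition motif that binds RNA holding repeated CAC. A microRNA cluster is transcribed as 1 long primary RNA, from which the nuclear enzyme DROSHA with DGCR8 cuts hairpins, and DICER then cuts these into mature microRNAs. The hairpins may lie in introns or exons of a noncoding host RNA. A mature microRNA finds its targets mainly through its seed, bases 2 to 8. The miR-302 family is the hallmark microRNA family of human pluripotent cells and promotes the cell cycle and reprogramming. The cluster of MIR17HG, known as miR-17-92, is induced by MYC and drives proliferation. MIR371/MIR373 is expressed in pluripotent and germ cell tumour cells, and C19MC is a primate-specific imprinted cluster of the placenta and of early embryonic cells.

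The mature microRNAs below are shown because the clusters with and without listed peaks encode overlapping seeds. Each sequence is from RefSeq (GRCh38.p14), 5′ to 3′, with the seed in capitals. Outside C19MC, a single arm per hairpin is given, the one known as the main product, in the order of transcription. The C19MC arms stand for its most frequent seeds, in the order of seed frequency and not of transcription.

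The 5 microRNAs of MIR302/MIR367 are these.
hsa-miR-302b-3p: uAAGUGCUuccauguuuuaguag
hsa-miR-302c-3p: uAAGUGCUuccauguuucagugg
hsa-miR-302a-3p: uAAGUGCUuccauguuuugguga
hsa-miR-302d-3p: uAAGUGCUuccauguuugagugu
hsa-miR-367-3p: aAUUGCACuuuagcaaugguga

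The 6 microRNAs of MIR17HG are these.
hsa-miR-17-5p: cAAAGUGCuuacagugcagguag
hsa-miR-18a-5p: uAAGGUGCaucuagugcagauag
hsa-miR-19a-3p: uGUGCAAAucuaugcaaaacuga
hsa-miR-20a-5p: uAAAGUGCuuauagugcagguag
hsa-miR-19b-3p: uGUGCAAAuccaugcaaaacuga
hsa-miR-92a-3p: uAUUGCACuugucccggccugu

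The 3 microRNAs of MIR371/MIR373 are these.
hsa-miR-371a-3p: aAGUGCCGccaucuuuugagugu
hsa-miR-372-3p: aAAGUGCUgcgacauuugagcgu
hsa-miR-373-3p: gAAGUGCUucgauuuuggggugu

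C19MC is given by 1 arm for each of its 5 most frequent seeds, which 11, 6, 5, 4 and 4 of its 43 matched loci carry, in this order.
hsa-miR-518d-5p: cUCUAGAGggaagcacuuucug
hsa-miR-518a-3p: gAAAGCGCuucccuuugcugga
hsa-miR-520a-3p: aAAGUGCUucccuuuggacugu
hsa-miR-519a-3p: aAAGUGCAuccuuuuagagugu
hsa-miR-516a-3p: uGCUUCCUuucagagggu

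Of the 50 distinct seeds among 108 mature arms of the 4 clusters, 3 occurred in more than 1 cluster. The seed AAGUGCU was carried by 4 loci of MIR302/MIR367, 2 of MIR371/MIR373 and 5 of C19MC. The seed AAAGUGC joined miR-17-5p and miR-20a-5p with 2 loci of C19MC, and AUUGCAC joined miR-367-3p with miR-92a-3p. Thus the most shared seed came from 1 cluster with listed peaks and from 2 clusters without any.

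The eCLIP lists held 25759, 118375, 20254 and 29615 peaks in libraries 1 to 4. Read numbers behind a peak were worked out from its log2 fold and p, and 99.4% to 99.9% of those with a usable p above 0 gave a unique pair, with an input of 0 reads taken as 1 since the values do not tell them apart. Their median over all such peaks was 3 immunoprecipitation reads in library 3 and 4 in the other 3 libraries. Total reads per library are not known here. The reads of libraries 3 and 4 agreed within sampling noise (chi-square of 1.04 per degree of freedom over 365 shared peaks, p = 0.271, against 6.61 to 11.9 for the other pairs). They were counted as 1 sample, and a mean ± SD below is over n = 3 samples.

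RBPMS peaks on the precursors differed first by cluster. The MIR302/MIR367 stretch of 5 kb held 5, 10, 7 and 8 listed peaks in libraries 1 to 4. The MIR17HG stretch of 7 kb held 4, 12, 2 and 2. The 110 kb of C19MC and the 10 kb of MIR371/MIR373 held 0 in each library. In library 2, the longest list, 0 of 118375 peaks allows a share of up to 0.00253% for either stretch, as a matter of counting error only. A stretch with no listed peak shows neither that its RNA is absent nor that RBPMS does not bind it, since input levels are not in the lists and the sources used here do not say whether peaks were sought in these stretches.

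On the opposite strand of the 4 stretches 0 peaks were listed in any library. RefSeq places MIR302CHG, the noncoding host RNA of miR-302, inside the gene LARP7, which runs on the other strand and encodes the La-related protein that stabilises 7SK RNA. No peak was listed on the LARP7 strand in this stretch. The stretches are set in whole kb and not by the ends of the host RNAs, whose hg19 positions were not used here. Next to MIR302/MIR367 and next to MIR17HG, flanks of 5 times the length of the stretch on both sides held 0 listed peaks on the same strand in all 4 libraries. The flanks of the length of C19MC on both sides held 5, 11, 4 and 6 listed peaks in libraries 1 to 4, beside the 0 inside C19MC. Over the 4 stretches together, the log2 ratio of listed peaks per kb inside over flanks was 1.73, 1.91, 2.02 and 1.64 in libraries 1 to 4, with 0.5 peaks added to each count. Its mean was 1.82 ± 0.090 (SD, n = 3; exact two-sided sign-flip permutation p = 0.25, the smallest that 3 samples allow). Taken over the 4 libraries singly the exact p was 0.13, again the smallest possible. All peaks counted inside were of MIR302/MIR367 and MIR17HG, and all those counted in flanks were next to C19MC. The ratio and its p thus do not test an excess shared by the 4 stretches. The 20 kb of flanks of MIR371/MIR373 lie within those of C19MC and entered the flank length in both, which raises each ratio.

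A peak was called enriched where its log2 fold was 3 or more, which is 8-fold, and its −log10 p was also 3 or more. In MIR302/MIR367 enriched peaks numbered 0 of 5, 1 of 10, 1 of 7 and 2 of 8 in libraries 1 to 4, and in MIR17HG 0 in every library. Of all listed peaks, 15.9%, 5.38%, 12.6% and 12.7% were enriched. With 5 to 10 peaks per library, several of them next to each other in 1 region, the share in MIR302/MIR367 was not tested against that of the whole lists.

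By p alone, with −log10 p of at least 3 at any log2 above 0, MIR302/MIR367 had 1 of 5, 5 of 10, 3 of 7 and 3 of 8 peaks, where the background was 18.2%, 7.47%, 13.8% and 14.1% of all listed peaks. The share was above the background in each library, and close to it in library 1. Reads per peak moved with this count: MIR302/MIR367 peaks had 4 to 160 immunoprecipitation reads with a median of 17, against medians of 3 or 4 in the whole lists, and the part of reads in the count was not tested. In MIR17HG 0 peaks passed in any library. Of the 12 MIR302/MIR367 peaks that passed, 11 lay in 1 region, described below.

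At the other end, 0 of 9, 6 of 22, 0 of 9 and 4 of 10 members of libraries 1 to 4 had a log2 fold below 0, where 2.84%, 15.6%, 4.29% and 7.42% of all listed peaks did. The 10 peaks below 0 were 5 each of MIR302/MIR367 and MIR17HG, all of them in libraries 2 and 4.

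The 4 enriched peaks of the miR-302 host, whose share was not tested against that of all listed peaks, lay in 1 region. Merged over libraries, the 30 peaks of MIR302/MIR367 made 8 regions, of which 2 were listed in all 4 libraries, 2 in 3, 2 in 2 and 2 in 1. With libraries 3 and 4 as 1 sample, the regions of all 4 libraries were in 3 samples and those of 3 libraries in 2. The region of chromosome 4, 113568172 to 113568553, minus strand, 382 bases wide, held 14 of the 30 peaks, 11 of the 12 with −log10 p of at least 3 and all 4 enriched ones. It was chosen after its values were seen, so its difference from the other regions is given as a description with no test.

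**Figure D1:**
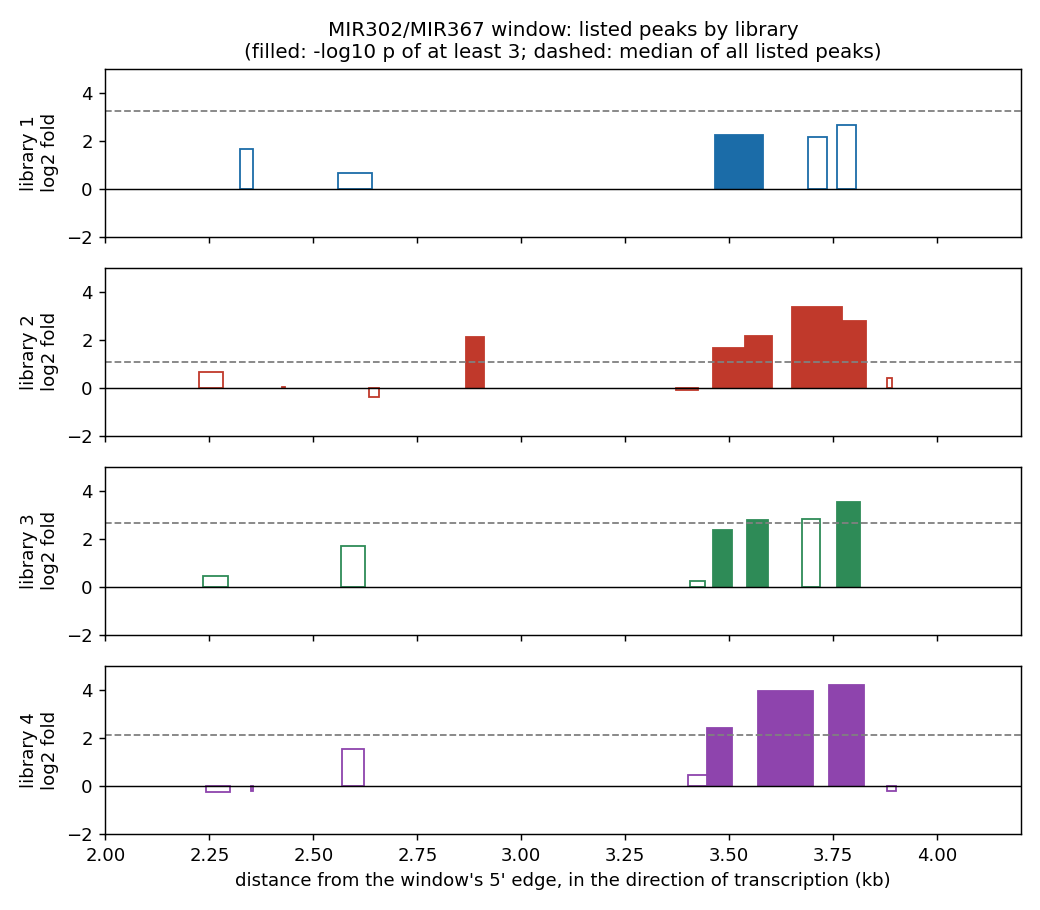
Log2 fold over input (vertical axis) of each listed peak of the MIR302/MIR367 stretch by distance from its 5′ edge in kb (horizontal axis), 1 panel per library; filled bars have −log10 p of at least 3 and the dashed line is the median of all listed peaks of that library. The bars between 3447 and 3829 bases from the edge form the 382-base region in all 4 libraries, and the bars 5′ of it are mostly low and open. In library 1 all bars of the region lie below the dashed line at 3.25. In library 3 its lowest bar, at 2.37, lies below the dashed line at 2.67.

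In library 1 this region held 3 peaks with log2 folds of 2.15 to 2.67, the most significant at −log10 p of 5.80 with 21 immunoprecipitation reads against 14 input reads. In library 2 it held 4 peaks from 1.67 to 3.38. The highest of these, 113568231 to 113568350, had 160 immunoprecipitation reads against 16 input reads and a −log10 p of 27.7. In libraries 1 and 2 the region thus held no log2 fold above 3.38. All 3 peaks of library 1 lay below the median of all its listed peaks, 3.25.

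In library 3 the region held 4 peaks from 2.37 to 3.54. The highest, 113568188 to 113568242, rested on 11 immunoprecipitation reads against 2 input reads (exact 95% interval of log2 fold 1.35 to 6.76). In library 4 it held 3 peaks, 2 of them enriched. The peak at 113568177 to 113568260 reached 4.19 with 25 reads against 2 (exact interval 2.18 to 7.31), and the one at 113568299 to 113568431 reached 3.96 with 32 reads against 3. The 3 highest folds of libraries 3 and 4 thus stood on 2 or 3 input reads. These intervals cover counting error only.

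Pooled over the region's peaks, immunoprecipitation and input reads were 36 and 23 in library 1, 475 and 91 in library 2, 51 and 16 in library 3 and 79 and 11 in library 4. Scaled for depth this gave log2 folds of 2.31 (exact 95% interval 1.52 to 3.14), 2.44 (2.12 to 2.78), 2.76 (1.92 to 3.67) and 3.39 (2.47 to 4.45). The 4 intervals overlapped each other, and the mean was 2.61 ± 0.41 (SD, n = 3). Some peaks of library 2 adjoin, such as those that end at 113568230 and begin at 113568231. A read that reaches over both may be counted in each. The sums may then be too high and the intervals too narrow. The sums run over 3, 4, 4 and 3 peaks that cover 205, 319, 196 and 276 bases in libraries 1 to 4, so they do not stand for the same bases. The plain mean of the log2 folds of these peaks was 2.36, 2.503, 2.88 and 3.52. Since high values led to the choice of the region, these levels describe it and support no claim of enrichment by themselves.

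**Figure D2:**
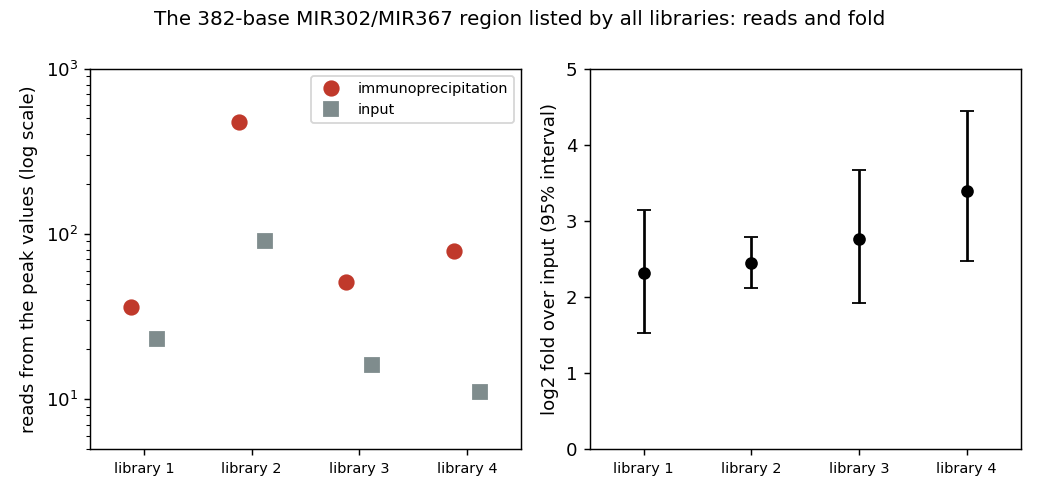
Left, immunoprecipitation reads (circles) and input reads (squares) summed over the peaks of the 382-base MIR302/MIR367 region in each library, on a log scale; right, the log2 fold over input scaled for depth, with exact 95% intervals that cover counting error. Library 2 holds 475 and 91 reads, and its interval of 2.12 to 2.78 is the narrowest of the 4. Reads that reach over adjoining peaks may be counted more than once, which would make an interval too narrow.

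Within the region, 110 bases were listed by all 4 libraries, in stretches of 45 bases (113568196 to 113568240), 12 bases (113568299 to 113568310), 13 bases (113568419 to 113568431) and 40 bases (113568495 to 113568534). The enriched peaks of libraries 3 and 4 that begin at 113568188 and 113568177 both cover the first of these stretches. In each library the 3′-most peak of the region, at low coordinates on this minus-strand RNA, had a higher log2 fold than the 5′-most. The 5′-most peak had 1.67, 2.37 and 2.42 in libraries 2, 3 and 4, and the 3′-most had 2.79, 3.54 and 4.19. In library 1 these peaks had 2.25 and 2.67. Their exact 95% intervals overlapped in each library, and in library 2 the highest peak, at 3.38, was neither of them.

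The other 7 regions of the miR-302 host were lower. Peaks outside the 382-base region lay between 0.67 and 1.67 in log2 fold in library 1, between -0.38 and 2.11 in library 2, between 0.26 and 1.72 in library 3 and between -0.25 and 1.54 in library 4. Inside and outside values did not overlap in libraries 1, 3 and 4, and overlapped in library 2. The median inside was higher than the median outside by 1.08, 2.25, 2.36 and 4.15 in libraries 1 to 4, with a mean of 2.20 ± 1.09 (SD, n = 3).

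A region at 113569344 to 113569440 was also listed by all 4 libraries, at log2 folds of 0.67, -0.38, 1.72 and 1.54 in libraries 1 to 4, and in none with −log10 p of at least 3. Its immunoprecipitation and input reads were 8 and 16 in library 1, 14 and 9 in library 3 and 16 and 8 in library 4. It recurred in position without passing the threshold. Another region, 113569701 to 113569775, was listed by 3 libraries at 0.65, 0.45 and -0.25 in libraries 2, 3 and 4. The region next to the main one on its 5′ side, 113568554 to 113568627, had -0.073, 0.26 and 0.46 in the same libraries. The nearest peaks of the main region had 1.67, 2.37 and 2.42 in these libraries.

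Outside the main region, 1 peak had −log10 p of at least 3, at 113569090 to 113569134 in library 2, with 33 immunoprecipitation reads against 8 input reads and a log2 fold of 2.11. Library 2 also listed a peak of 6 bases at 113569570 to 113569575 with 94 reads in the immunoprecipitation and 94 in the input, a log2 fold of 0.061. This was the highest input read number among the 25 of 30 miR-302 peaks whose reads could be worked out. Many input reads there came with no excess in the immunoprecipitation.

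The 4 regions farthest 5′ spanned 432 bases, 113569344 to 113569775, and lay 790 bases 5′ of the main region. In RefSeq on GRCh38.p14 the 5 hairpins of this cluster span 684 bases. No hg19 positions of the hairpins were used here, so which listed peak lies on a hairpin was not tested.

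MIR17HG held no peak past either threshold. Its 20 peaks made 17 regions, 14 listed in 1 library and 3 in 2, and 0 bases were listed by 3 or more libraries. In libraries 1 to 4, 1 of 4, 10 of 12, 2 of 2 and 1 of 2 MIR17HG peaks shared no base with a listed peak of another library, where 52.9%, 82.2%, 48.1% and 47.2% of all listed peaks did not. For MIR302/MIR367 these were 0 of 5, 2 of 10, 0 of 7 and 0 of 8 peaks. Here libraries 3 and 4 counted as separate libraries, so a peak shared by these alone counted as shared. Library 2 held 12 of the 20 MIR17HG peaks, and there their share was near that of its whole list. Of the 20, 12 began in the first 2 kb of the stretch, 4 of 4, 5 of 12, 1 of 2 and 2 of 2 in libraries 1 to 4. No −log10 p exceeded 1.72.

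**Figure D3:**
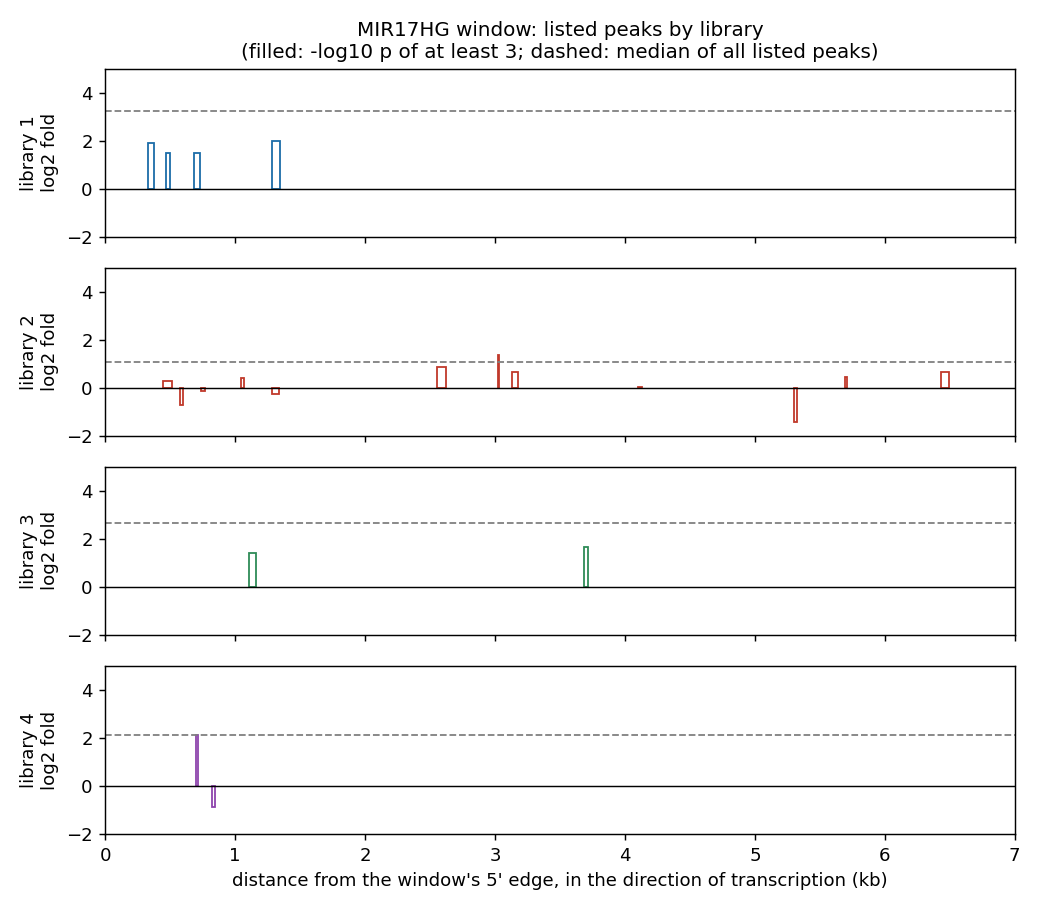
Log2 fold over input (vertical axis) of each listed peak of the MIR17HG stretch by distance from its 5′ edge in kb (horizontal axis), 1 panel per library, drawn as for MIR302/MIR367 with open bars for −log10 p below 3 and a dashed line at the median of all listed peaks. All 20 bars are open, and 14 of the 17 regions appear in a single library.

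In library 1 the 4 peaks had log2 folds of 1.47 to 1.99. In library 2 the 12 peaks ran from -1.40 to 1.38, with 4 of 12 below 0. In library 3 the 2 peaks had 1.41 and 1.67, and in library 4 they had 2.13 and -0.87. The highest value, 2.13 in library 4 at 92000696 to 92000714, rested on 3 immunoprecipitation reads against 0 or 1 input read (exact 95% interval, taken with 1 input read, -1.51 to 7.84).

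Of the 14 MIR17HG peaks whose reads could be worked out, 1 had an exact interval above 0. It was the peak at 92000332 to 92000375 in library 1, with 7 immunoprecipitation reads against 6 input reads, a log2 fold of 1.89 and an interval of 0.092 to 3.74. By library, 1 of 4, 0 of 7, 0 of 2 and 0 of 1 MIR17HG intervals lay above 0, and 3 of 5, 5 of 8, 5 of 7 and 4 of 5 MIR302/MIR367 intervals. Of all listed peaks with reads worked out, 38.4%, 15.0%, 24.3% and 24.1% had such an interval. The MIR302/MIR367 share was higher than this background in each of the 4 libraries, again with more reads per peak than in the whole lists. MIR17HG peaks had 3 to 14 immunoprecipitation reads with a median of 6, where the whole lists had medians of 3 or 4. With so few reads a small difference from input may go unseen. The part of depth in the MIR17HG counts was not tested.

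The MIR17HG region 92001283 to 92001345 had 1.99 in library 1, from 5 reads against 4, and -0.24 in library 2. The medians of all listed peaks in these libraries were also far apart, at 3.25 and 1.06. The region 92000443 to 92000511 had 1.497 and 0.28 in the same libraries. The region 92000686 to 92000732 had 1.47 in library 1 and 2.13 in library 4. Each of these regions was absent from the lists of 2 libraries.

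The clusters were then set against each other and against the whole lists, by the median log2 fold within each library. The median of MIR302/MIR367 peaks was 2.15, 1.16, 2.37 and 0.999 in libraries 1 to 4, and that of MIR17HG peaks 1.69, 0.35, 1.54 and 0.63. MIR302/MIR367 was higher in 4 of 4 libraries, by 0.62 ± 0.17 (SD, n = 3; exact two-sided sign-flip permutation p = 0.25, the smallest that 3 samples allow). Over the 4 libraries singly the exact p was 0.13. This comparison was added after the values were seen. The 2, 6, 3 and 5 MIR302/MIR367 peaks outside the main region had medians of 1.17, 0.23, 0.45 and -0.19 in libraries 1 to 4. These lay below the MIR17HG medians in all 4 libraries. The main region was itself chosen after its high values were seen, so leaving it out lowers the MIR302/MIR367 medians by construction. What the difference between the clusters rested on was not tested. The MIR17HG medians of libraries 3 and 4 were of 2 peaks each.

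All listed peaks had medians of 3.25, 1.06, 2.67 and 2.13. The median of the 50 members lay below these in 4 of 4 libraries, by -1.36, -0.61, -0.95 and -1.13, with a mean of -1.004 ± 0.38 (SD, n = 3; exact two-sided sign-flip permutation p = 0.25, the smallest possible). Over the 4 libraries singly the exact p was 0.13. For MIR302/MIR367 alone the differences were -1.10, 0.098, -0.30 and -1.13, so they did not all have 1 direction (mean -0.57 ± 0.61, SD, n = 3; exact p = 0.50). For MIR17HG alone they were -1.56, -0.71, -1.13 and -1.5 (mean -1.19 ± 0.44, SD, n = 3; exact p = 0.25). The median of the whole lists corresponds to a ratio of 3 immunoprecipitation reads to 1 input read in libraries 1, 3 and 4 and of 2 to 1 in library 2. Of all listed peaks, 18.3% to 33.5% had 3 reads against 0 or 1. With only peaks of −log10 p of at least 3, the difference for the members was -1.42 as a mean of the 4 libraries, against -1.01 with all peaks. Members then numbered 1, 5, 3 and 3 in libraries 1 to 4. The part of weak peaks in the difference was not tested further.

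**Figure D4:**
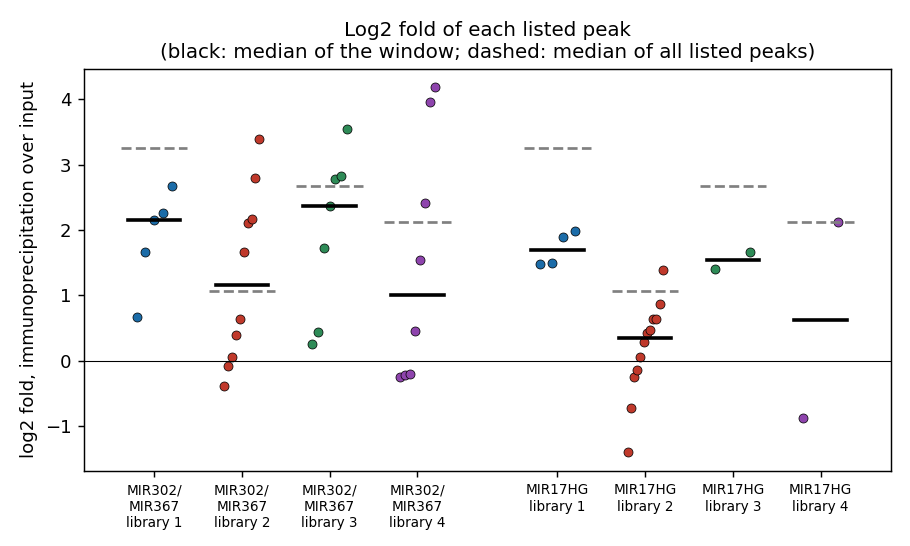
Log2 fold over input of each listed peak (points) of MIR302/MIR367, left, and MIR17HG, right, by library; black lines are the medians of the stretch and dashed lines the medians of all listed peaks of that library. The black line lies higher for MIR302/MIR367 than for MIR17HG in all 4 libraries, and below the dashed line everywhere but in MIR302/MIR367 of library 2.

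By rank in the whole lists, the best miR-302 peaks stood higher in p than in fold. In libraries 1 to 4, 89.3%, 99.3%, 89.2% and 94.8% of all listed peaks had a lower −log10 p than the most significant MIR302/MIR367 peak. By log2 fold, the highest MIR302/MIR367 peak exceeded 37.5%, 94.7%, 85.2% and 92.2% of the listed peaks. Library 1 gave the lowest fold rank, 37.5%, with its highest peak resting on 8 immunoprecipitation reads against 4 input reads.

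The RefSeq hairpins of the clusters were searched for the letters CAC on the transcribed strand only, since no hg19 sequence of the peaks was used here. At least 1 CAC was found in 3 of 5 hairpins of MIR302/MIR367, 5 of 6 of MIR17HG, 2 of 3 of MIR371/MIR373 and 26 of 43 of C19MC, where 66.0% of all 1560 RefSeq hairpins held it. At least 2, counted with overlaps, were found in 1 (MIR302A), 2 (MIR20A and MIR92A1), 2 (MIR371A and MIR372) and 2 hairpins, where 30.5% of all did. The hairpins of MIR498, MIR517A and MIR520F were not matched. These letters describe the hairpins and not the listed peaks.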

How the data were processed

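The 4 peak lists, 1 per eCLIP library, were used. Per the labels' protocols, lysates and libraries followed the published eCLIP procedure, with paired reads of 75 nt. The deposited values are a −log10 p and a log2 fold of immunoprecipitation over input per peak, made by the authors and already scaled for depth; build hg19 is named per the submitters' processing notes. The sources used here name no aligner and no peak caller, and do not say which input library entered which list. Every deposited log2 below 0 in the members has 0 as its −log10 p, so depletion has no test here.

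Read numbers were worked out as the whole numbers whose ratio, times a depth constant per library (3.18, 1.04, 2.12 and 1.46 for libraries 1 to 4), gave the log2 fold, and whose p from Fisher's exact test in its binomial limit, or from a continuity-corrected chi-square test, matched within a relative tolerance of 0.003. This was tested on simulated reads. An input of 0 and of 1 read cannot be told apart. Peaks sharing at least 1 base were merged into regions. Libraries were compared by a chi-square test over peaks paired at 80% overlap with at least 40 reads together. Named peaks are the regions in at least 3 libraries, the enriched peaks and the highest peak of each stretch; others named were chosen after their values were seen. The members, thresholds and tests were chosen with earlier results of these data known. Medians were compared within each library and tested over libraries, by an exact sign-flip permutation test. Python 3.11.15, pandas 2.3.3, numpy 2.4.6 and scipy 1.17.1 were used. Alternatives were each library left out, peak centres, the opposite strand, other thresholds, other flanks and other region rules.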

Additional observations from a re-analysis of the deposited data

Results flagged for a closer look

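Of 15 quantities compared over the 4 libraries taken singly, 2 had an outlying library by Dixon's criterion, against 0.75 that chance would give at about 1 in 20. Library 2 listed 22 peaks in the 4 stretches, against 9, 9 and 10 in libraries 1, 3 and 4, and its gap to the nearest library was 0.923 of the whole range. These peaks covered 993 bases in library 2 and 506, 440 and 500 bases in the others, a gap of 0.881 of the range. Library 2 also had the longest list, with 118375 peaks, and the 22 peaks made up 0.0186% of it, against 0.0349%, 0.0444% and 0.0338% in libraries 1, 3 and 4.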

How the results depend on the processing

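Of 61 recomputed values, 52 kept their direction, or for counts stayed within 1.5 times the main count. The mean number of enriched peaks per library was 1, and 3 with a log2 fold of at least 1; the looser threshold admits more peaks by construction. The mean number of MIR302/MIR367 peaks with −log10 p of at least 3 was 3, and 1.75 with at least 5. Regions listed in at least 3 libraries numbered 4, and 9 for at least 2 libraries and 2 for all 4; leaving out each library, with 3 still asked for, gave 2 to 4, with 2 without library 3. On the opposite strand the listed peaks, the enriched peaks and the regions each numbered 0, and the log2 ratio of peaks per kb inside over flanks was -0.43 (exact permutation p = 0.625), since no peak lay inside. The median for C19MC was not computed, as no peak was listed there. MIR17HG peaks had a median of 6 immunoprecipitation reads, where the whole lists had medians of 3 or 4. Small differences from input may go unseen at such read numbers, and the part of depth was not tested. No paired analysis was possible because no separate values of the input libraries were used, so a fit of eCLIP and input libraries with the replicate number as a block could not be made; each log2 fold already sets an eCLIP library against input, and all differences were taken within a library.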
